A study of Homo sapiens and Mus musculus with 25 samples.

Results

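The corrected H3K4me3 list is a set of peaks that the study's authors computed from several libraries in order to remove the off-target capture of single antibodies. It was set here against the lists of the pair of H3K4me3 antibodies that went into it, Abcam ab12209 and Abcam ab8580. All 3 lists were read whole on chromosomes 1 to 22 and X. They hold 48459 corrected peaks, 14172 ab12209 peaks and 721215 ab8580 peaks, out of 5136089 peaks in the 22 lists used from the series. The cells are K562, an established human line from a chronic myeloid leukaemia with erythroid features, and every library compared here is from this line, with no treatment in the labels. Libraries were made by internally calibrated ChIP-seq, where barcoded nucleosomes of known modification are added before immunoprecipitation and calibrate the recovered signal. The ab12209 library was amplified for 12 cycles and the ab8580 library for 8. Tests used 13 antibodies that had no part in the correction, of which 6 were raised against H3K4me3, 3 against H3K4me2 and 4 against H3K4me1. The corrected list is a single list with no replicate, and it shares libraries with both sources, so its overlap with them is given as a description.

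Trimethylation of lysine 4 on histone H3 is laid down by SET1 and MLL family methyltransferases, mostly at CpG-rich promoters of active and poised genes, and is removed by KDM5 demethylases. The mono- and dimethylated forms flank promoters and mark enhancers. An antibody against the trimethylated form that also binds the lower forms therefore reports peaks away from promoters.

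Sequences of 3 regions show what the correction kept, dropped and added. MCM3 (a subunit of the replicative helicase) had the highest corrected value of a promoter in all 3 lists, and TOP2A (DNA topoisomerase II alpha) the highest ab12209 value among cell cycle genes whose promoter lost its peak. Both promoter sequences are from RefSeq, build GRCh38.p14, minus strand, at chr6:52284693-52284992 for MCM3 and chr17:40417847-40418146 for TOP2A. The other sequence is a corrected peak of typical value and width, picked after the values were seen. It lies at chr5:36190443-36190678 (GRCh38, plus strand), overlaps neither source, is in the body of SKP2 (an F-box protein of a ubiquitin ligase) and has a value of 9.96. Capitals mark CpG dinucleotides.
MCM3 promoter, kept: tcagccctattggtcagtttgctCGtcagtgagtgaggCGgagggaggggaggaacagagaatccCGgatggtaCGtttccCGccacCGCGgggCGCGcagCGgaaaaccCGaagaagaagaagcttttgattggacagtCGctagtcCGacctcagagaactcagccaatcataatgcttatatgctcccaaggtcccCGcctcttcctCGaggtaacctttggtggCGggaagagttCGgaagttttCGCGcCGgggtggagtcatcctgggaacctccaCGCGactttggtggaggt
TOP2A promoter, dropped: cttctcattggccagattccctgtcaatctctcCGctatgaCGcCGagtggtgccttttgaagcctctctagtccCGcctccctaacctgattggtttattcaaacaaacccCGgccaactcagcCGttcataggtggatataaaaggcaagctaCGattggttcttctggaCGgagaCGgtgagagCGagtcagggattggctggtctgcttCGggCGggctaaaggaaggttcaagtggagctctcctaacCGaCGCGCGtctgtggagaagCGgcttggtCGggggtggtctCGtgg
distal corrected peak in neither source: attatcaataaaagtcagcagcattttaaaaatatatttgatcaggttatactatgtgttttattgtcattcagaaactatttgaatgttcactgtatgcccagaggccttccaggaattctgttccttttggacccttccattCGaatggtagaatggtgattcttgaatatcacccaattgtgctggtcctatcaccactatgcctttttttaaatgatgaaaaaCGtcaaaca
The kept MCM3 promoter held 22 CpG in 300 bases and the dropped TOP2A promoter 19. The corrected peak in neither source held 2 CpG in 236 bases.

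The first comparison asked which bases the correction kept, dropped and added. The corrected list covered 20.2 Mb, close in length to the 21.2 Mb of ab12209 and far below the 769 Mb of ab8580. The bases were nevertheless mostly not those of ab12209. Of the corrected bases 26.1% lay in ab12209, 95.2% in ab8580 and 4.74% in neither. Read from the sources, the correction kept 24.9% of ab12209 bases and dropped 75.1%, and kept 2.502% of ab8580 bases and dropped 97.5%.

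Position separated the classes of bases. A base was called a promoter base within 1 kb of the canonical transcription start site (TSS) of 1 of 19962 protein-coding genes, and distal when over 1 kb from every annotated transcript start. The 5.26 Mb in all 3 lists were 75.8% promoter and 10.6% distal. The 14.0 Mb of the corrected list in ab8580 but outside ab12209 were 2.36% promoter and 88.6% distal, and the 0.958 Mb in neither source were 1.03% promoter and 91.9% distal. The 14.6 Mb that both sources shared and the correction dropped were 58.3% promoter, and the 1.26 Mb of ab12209 alone were 52.4% promoter. Promoter bases made up 1.496% of the 735 Mb of ab8580 alone and 1.23% of the genome. Exons of protein-coding genes held 30.1% of the bases in all 3 lists, 6.93% of those in the corrected list and ab8580, 25.8% of the dropped bases of both sources and 3.58% of the genome.

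**Figure D1:**
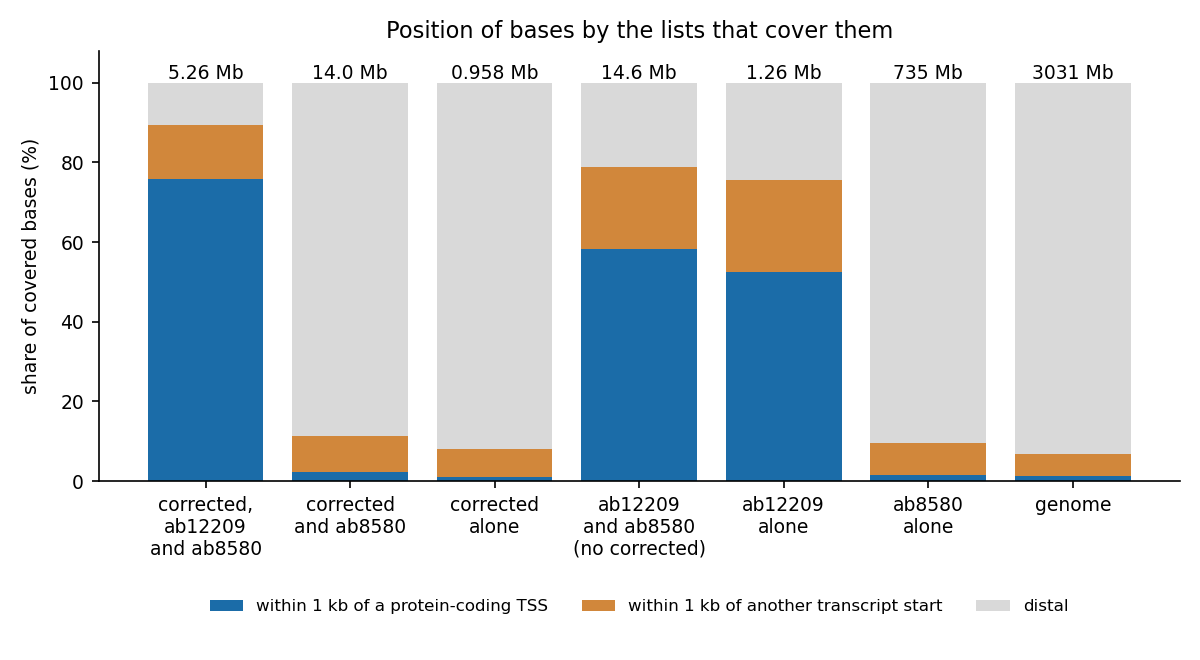
Share of covered bases (%, bars to 100) at protein-coding promoters, at other transcript starts and at distal positions, for each combination of lists and for the genome, with the covered length above each bar. Bases in all 3 lists are 75.8% promoter, while those in the corrected list and ab8580 are 2.36% promoter, against 1.23% of the genome.

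Counted as peaks, the corrected list fell into a small class of tall, wide promoter peaks and a large class of low, narrow distal ones. The authors' value in column 4 has no name in the files and may be an apparent modification density. In the corrected list 4 values exceed 100, up to 107.5, so its scale is uncertain. A low value does not tell fewer cells with the mark from less mark per cell. A total of 3048 corrected peaks, 6.29% of the list, overlapped both sources by at least 1 base, and 88.7% of them were at promoters. Their median value was 45.5 (quartiles 39.8 and 52.2) and their median width 1765 bases. A total of 42185, 87.1% of the list, overlapped ab8580 only. Their median value was 9.40 (quartiles 8.13 and 11.0), their median width 267 bases, and 1.01% were at promoters. They lay a median of 10038 bases from the nearest transcript start.

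The 3221 corrected peaks in neither source, 6.65% of the list, were of the same low and narrow kind, with a median value of 9.96, a median width of 238 bases and 91.4% distal. Only 5 corrected peaks overlapped ab12209 and not ab8580, with values of 32.2 to 69.1. Values under 20 were held by 0.623% of the peaks in both sources, 99.6% of those in ab8580 only and 99.7% of those in neither. Between 30 and 40, 655 of 674 corrected peaks overlapped both sources, and 82.6% were at promoters. Between 5 and 10, 25531 of 27153 overlapped ab8580 only, and 0.987% were at promoters.

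**Figure D2:**
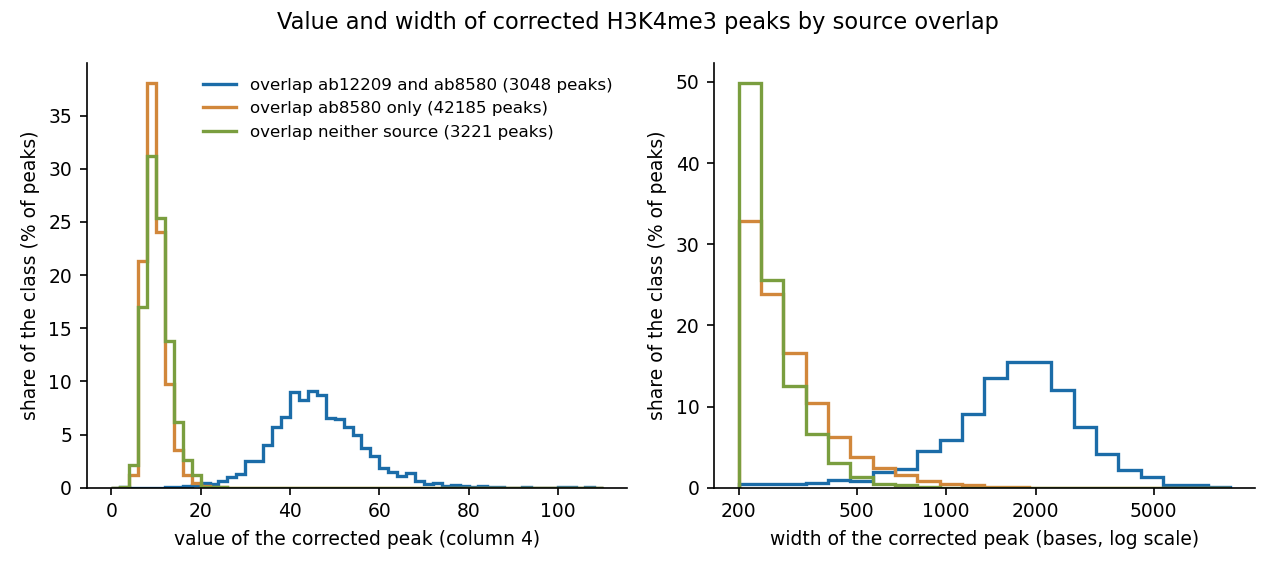
Share of each class of corrected peaks (% of peaks in the class) by column 4 value (left) and by width in bases on a log scale (right), for peaks that overlap both sources, ab8580 only or neither. Peaks in both sources centre on a value of 45.5 and a width of 1765 bases, and the other classes lie below a value of 20 in 99.6% and 99.7% of cases.

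The 134 distal corrected peaks that overlapped both sources had a median value of 36.3 and a median width of 789.5 bases. The 428 promoter peaks that overlapped ab8580 only had a median value of 9.55 and a median width of 289.5 bases. Among distal peaks and among promoter peaks, the medians were higher for corrected peaks that overlapped both sources than for those that overlapped ab8580 only.

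CpG density followed the same split. Corrected peaks in both sources held a median of 5.29 CpG per 100 bases (observed over expected 0.70), those in ab8580 only 0.980 (0.20), and those in neither source 0.847 (0.18), against 1.00 (0.24) over the genome. The ab12209 peaks that the correction kept and those it dropped had median CpG densities of 5.35 and 5.44 per 100 bases. At promoters the kept ab12209 peaks had a median GC content of 55.5% and the dropped ones 59.2%.

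Of the 14172 ab12209 peaks, 3077 (21.7%) overlapped a corrected peak and 11095 (78.3%) did not. Kept ab12209 peaks had a median ab12209 value of 34.3 (quartiles 28.5 and 39.6) and a median width of 1765 bases. Dropped ones had a median value of 21.8 (quartiles 11.8 and 32.1) and a median width of 1189 bases. The ranges overlapped widely, since dropped peaks reached 74.97 and kept peaks 65.6. In ab8580, 99.8% of kept and 89.8% of dropped ab12209 peaks overlapped a peak. The correction kept 28.8% of 9463 ab12209 peaks at promoters, 10.1% of 2144 at other transcript starts and 5.19% of 2565 at distal sites. Where it kept a peak it kept nearly its whole length, 89.7% of the bases.

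In 3053 pairs of a corrected peak and the ab12209 peak beneath it, the corrected value was the higher in 94.2%. Only ab12209 peaks with a corrected peak can form a pair, so the 11095 dropped ones are absent from this share. The median was 45.5 in the corrected list and 34.4 in ab12209, with a median difference of 11.5 (quartiles 6.72 and 16.9). Across these peaks, which share a library and are not independent, Pearson's r was 0.61 and Spearman's rho 0.58. Of the 721215 ab8580 peaks, for which values were not used here, 41912 (5.81%) overlapped a corrected peak. Kept ab8580 peaks had a median width of 1029 bases and dropped ones 503 bases. The correction kept 22.9% of 15489 ab8580 peaks at promoters and 5.21% of 638392 at distal sites.

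The share of ab12209 peaks kept differed by chromosome. It was 39.8% on chromosome 7, 37.1% on 6, 36.4% on 1 and 34.7% on 21, and 2.29% on 13, 3.26% on 14 and 0.737% on X. On the other chromosomes it lay between 12.7% (chromosome 4) and 23.9% (chromosome 5). The ab12209 value itself varied little, with chromosome medians of 21.6 (X) to 28.1 (15), and its rank correlation with the share kept was 0.17 (Spearman's rho, 23 chromosomes). The rank correlation of the share kept with the share of the chromosome covered by ab8580 was 0.59 (same measure and chromosomes). Corrected peaks in ab8580 only were also densest on chromosomes 7 (35.7 per Mb) and 1 (29.3 per Mb) and rarest on X (0.288 per Mb). Over the 23 chromosomes their density and the share of ab12209 peaks kept had a Pearson's r of 0.92 and a Spearman's rho of 0.76, given as a description because both counts come from the corrected list.

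The share kept was also read by chromosome within bands of ab12209 value. With ab12209 peaks ranked by value into 4 bands of equal number, 2.17% were kept in the lowest band, then 12.9%, 30.5% and, in the highest band, 41.2%. Within that highest band 70.4% of 756 peaks were kept on chromosomes 1, 6, 7 and 21, 36.5% of 2529 on the remaining chromosomes, and 2.33% of 258 on chromosomes 13, 14 and X. In the lowest band the shares were closer, at 3.46% of 810, 1.82% of 2469 and 1.52% of 264 peaks in the same order of chromosomes, with 4 peaks kept on 13, 14 and X. The ab8580 list covered 2.81% of chromosome 13, 4.16% of 14 and 2.03% of X, against 46.3% of chromosome 1 and 36.9% of 7. Its part in the chromosome pattern was not tested. These groups of chromosomes were chosen after the values were seen.

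**Figure D3:**
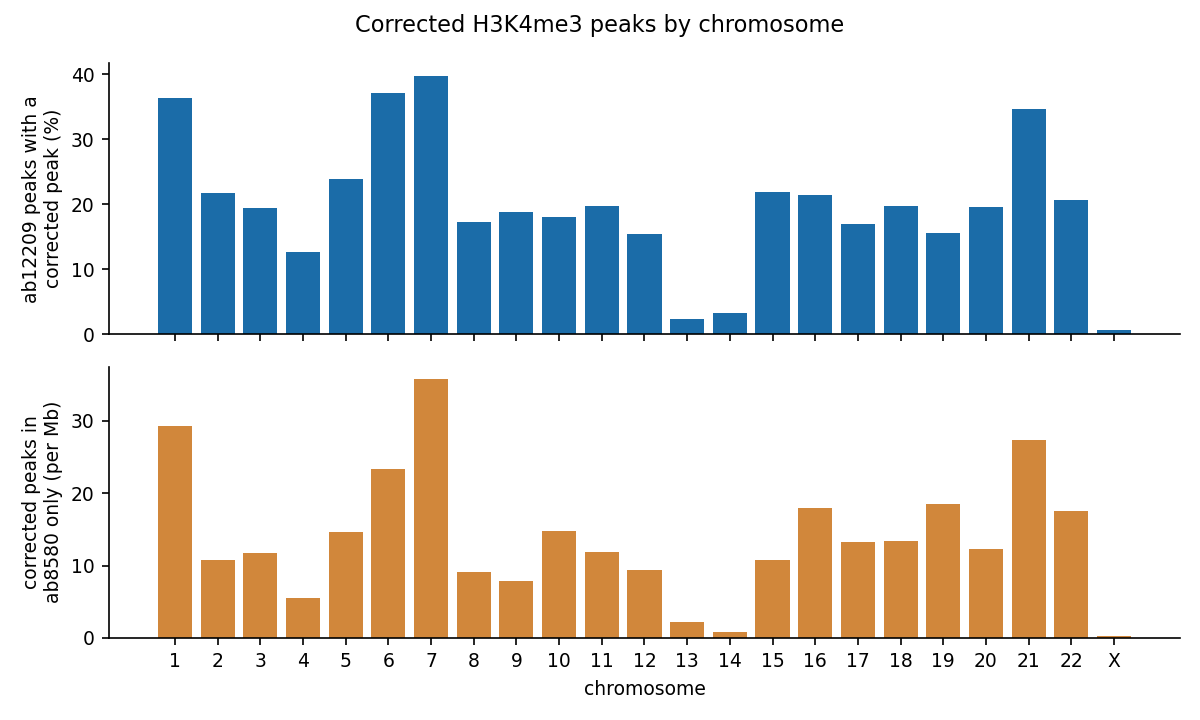
By chromosome, the share of ab12209 peaks that overlap a corrected peak (%, top) and the number of corrected peaks that overlap ab8580 only (per Mb, bottom). Chromosomes 1, 6, 7 and 21 stand highest in both panels, and 13, 14 and X lowest.

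The next comparison asked which promoters kept their mark. Of 19962 promoters, 3610 (18.1%) held a corrected peak, 10314 (51.7%) an ab12209 peak and 15027 (75.3%) an ab8580 peak. The correction kept 3180 of the 10314 ab12209 promoters (30.8%; 15.9% of all promoters) and dropped 7134 (35.7% of all promoters). A corrected peak without an ab12209 peak was found at 430 promoters (2.15%), of which 401 held an ab8580 peak and 29 held neither. Dropped promoters were not low in ab12209, with a median value of 30.2 (quartiles 21.9 and 37.6), against 35.8 (quartiles 30.6 and 40.7) at kept ones. At the 430 promoters with a corrected and no ab12209 peak, the corrected value had a median of 9.70 and the peak covered a median of 13.0% of the window. At kept promoters it covered 82.4%.

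Other H3K4me3 antibodies, which had no part in the correction, were read at the same promoters. A peak in at least 5 of the 6 other lists was found at 93.1% of the kept promoters, 64.4% of the dropped ones and 1.40% of those with a corrected and no ab12209 peak. This cut needs Diagenode C15410003 or EpiGentek A-4033-050, both labelled AR17 and the others AR16. They covered 65.6% and 52.6% of dropped ab12209 bases, and 92.5% and 86.6% of kept ones. The AR16 lists covered 97.2% to 99.6% of dropped and 99.5% to 99.9% of kept ab12209 bases. No peak in any of the 6 was found at 0 kept promoters, at 15 dropped ones (0.210%) and at 217 of the 430 (50.5%). Promoters with neither an ab12209 nor a corrected peak also often had none. The share was 42.5% of 4893 in ab8580 alone, against 48.4% of the 401 in the corrected list and ab8580. It was 73.8% of 4325 in none of the 3 lists, against 79.3% of the 29 in the corrected list alone. A peak in at least 5 of the 6 was found at 186 of the 4893 and 6 of the 401. The 50.5% is therefore not particular to promoters with a corrected peak. These shares are a description, since all libraries are of 1 cell line.

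Around the TSS the kept peaks were as narrow as those of ab12209. At promoters in all 3 lists, the TSS base lay under a corrected peak in 93.3%, an ab12209 peak in 95.9% and an ab8580 peak in 99.1%. At 3 kb downstream the shares were 2.68% for the corrected list, 2.33% for ab12209 and 79.3% for ab8580. At the 6558 promoters that both sources held and the correction dropped, 89.7% of TSS bases lay under an ab12209 peak and 98.2% under an ab8580 peak. At the 401 promoters in the corrected list and ab8580 only, the corrected share was 13.7% at the TSS, 21.9% at 1 kb upstream and 24.4% at 1 kb downstream. The corrected peaks there were thus no more frequent at the TSS than at the edges of the window.

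**Figure D4:**
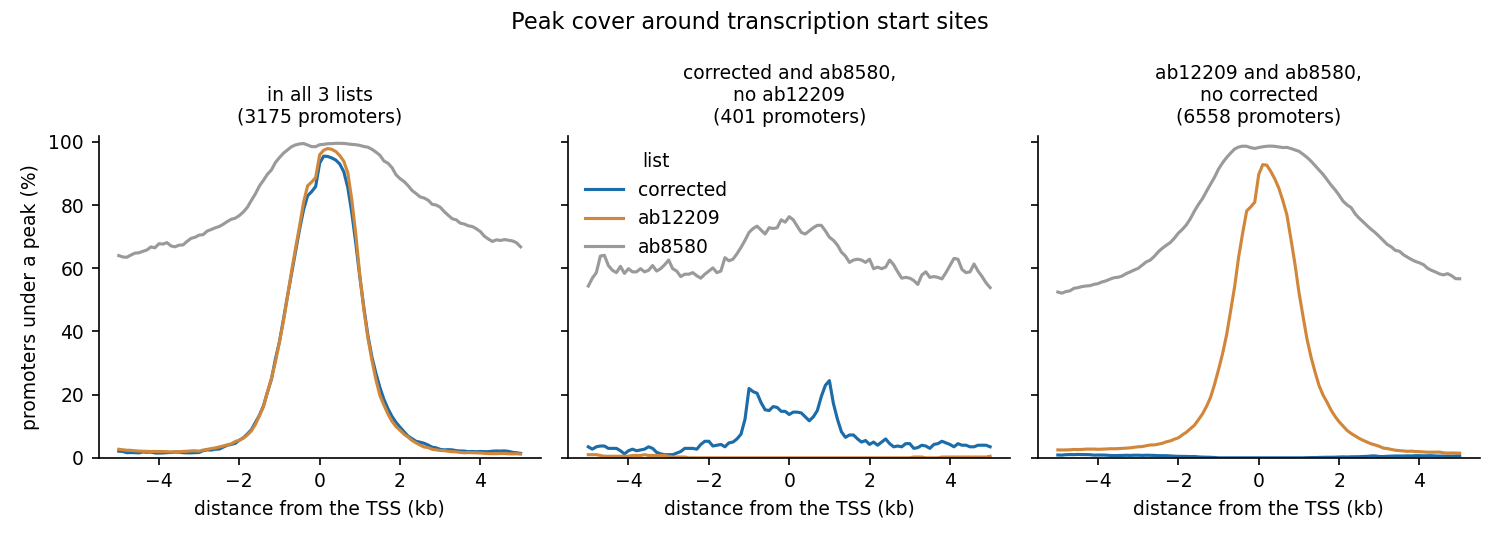
Share of promoters (%) whose base at each distance from the TSS (kb) lies under a corrected, ab12209 or ab8580 peak, for promoters in all 3 lists, in the corrected list and ab8580, and in both sources without a corrected peak. Corrected and ab12209 curves run close together at kept promoters (93.3% and 95.9% at the TSS), while at promoters without an ab12209 peak the corrected curve has no maximum at the TSS.

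Single promoters show the range of what was kept. MCM3 (chromosome 6, TSS 52284742) had a corrected value of 107.5 and an ab12209 value of 35.3, over peaks of 766 and 2516 bases. DIABLO, a mitochondrial protein that promotes apoptosis (chromosome 12, TSS 122226052), had 102.1 in the corrected list and 63.5 in ab12209. ALG9, an enzyme of N-glycan assembly (chromosome 11, TSS 111871581), had 100.6 in the corrected list and 48.2 in ab12209. These highest values belong to corrected peaks of 766, 837 and 866 bases, narrower than the median of their class, and all 3 promoters held a peak in all 6 other H3K4me3 lists.

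The dropped promoters with the highest ab12209 values were those of ZNF649, STEEP1 and LMTK2. ZNF649, a zinc finger gene (chromosome 19, TSS 51905017), had an ab12209 value of 74.97 over 1126 bases, lay under an ab8580 peak of 14609 bases and held a peak in all 6 other H3K4me3 lists. STEEP1, whose product helps STING leave the endoplasmic reticulum (chromosome X, TSS 119565409), had 72.2 in ab12209, no ab8580 peak, and a peak in 5 of the 6 other lists. LMTK2, a membrane-bound kinase (chromosome 7, TSS 98106862), had 68.5 in ab12209, an ab8580 peak, and a peak in 4 of the 6.

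The promoters with the highest corrected values and no ab12209 peak were mostly weaker. CAPZB, the beta subunit of the actin capping protein (chromosome 1, TSS 19485539), had a corrected value of 38.7 with an ab8580 and no ab12209 peak, and 5 of the 6 other H3K4me3 lists held it. ZDHHC18, a palmitoyltransferase (chromosome 1, TSS 26826688), had 35.1, and TMPRSS11A, a membrane serine protease (chromosome 4, TSS 67963493), had 31.9, each with a peak in 3 of the 6. With neither source, AXIN2, a negative regulator of Wnt signalling (chromosome 17, TSS 65561648), had a corrected value of 62.0 over 217 bases. CCDC74A (chromosome 2, TSS 131527888) had 56.1 over 254 bases and SCYGR4 (chromosome 2, TSS 227617498) 15.5 over 366 bases. None of the 6 other H3K4me3 lists held a peak at AXIN2, CCDC74A or SCYGR4.

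Gene lists were described by the share of their ab12209 promoters that the correction kept, beside 30.8% over all genes. The list of proteasome genes kept 17 of 35 and that of H3K4 methylation writers and erasers 10 of 21. Their median ab12209 values were 40.5 and 34.8 in the same order, against 32.3 over all ab12209 promoters. The share kept also differed by ab12209 value and by chromosome, and the gene lists were not matched for either. Kept proteasome promoters included PSMB10 (immunoproteasome subunit, corrected 64.6, ab12209 39.0), PSMC5 (a regulatory ATPase, 64.0 and 47.0 in the same order) and PSMB5 (a catalytic subunit, 62.3 and 47.9). Dropped ones included PSMD1, a scaffold of the regulatory particle, with an ab12209 value of 56.2, and PSMD7, with 52.8. Among the writers, the correction kept NCOA6 of the KMT2C and KMT2D complexes (corrected 59.6, ab12209 49.0), MEN1 (47.5 and 33.3) and the core subunits DPY30, RBBP5 and ASH2L. It dropped the core subunit WDR5 (ab12209 33.6) and the catalytic subunits SETD1A (28.8), SETD1B (28.4), KMT2B (33.0), KMT2C (34.8) and KMT2D (40.9). Of the erasers, KDM1A was kept, with 55.4 in the corrected list and 33.6 in ab12209, and KDM5A and KDM5B were dropped, with 44.9 and 40.3 in ab12209.

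Erythroid genes, which define the lineage of K562, kept 2 of 24 ab12209 promoters. These were TAL1, a transcription factor of blood development, with 39.2 in the corrected list and 24.8 in ab12209, and TFRC, the transferrin receptor, with 37.0 and 29.3. The 22 dropped ones included the master regulators GATA1 (ab12209 31.0) and KLF1 (30.5), the GATA1 cofactor ZFPM1 (47.0), the haem synthesis gene UROD (27.7) and the red cell ankyrin gene ANK1 (25.2). GATA1, KLF1, UROD and ANK1 held a peak in all 6 other H3K4me3 lists and ZFPM1 in 5. The globin copies HBG1 (18.8) and HBG2 (14.3) were dropped too, and their reads may be shared between near-identical copies. The median ab12209 value of the erythroid list was 25.0, against 32.3 over all ab12209 promoters.

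Cell cycle genes kept 5 of 28 ab12209 promoters, which were MCM3, MCM7 (corrected 52.5, ab12209 36.6), CDK2 (46.5 and 26.6), CCNA2 (44.6 and 35.1) and CDC20 (36.5 and 24.3). Dropped ones included TOP2A (ab12209 57.7), the replication licensing factor CDC6 (56.5) and the mitotic kinase AURKA (51.5). Immediate early genes, which respond to growth signals, kept 3 of 20, with IER3 (corrected 55.7, ab12209 33.1), EGR1 (42.6 and 26.1) and EGR2 (39.0 and 20.1). IER2, JUND and MYC were dropped at ab12209 values of 39.6, 39.0 and 36.2. Housekeeping genes kept 6 of 26, among them the TATA-binding protein gene TBP (corrected 49.1, ab12209 42.5), and dropped EMC7, a subunit of a membrane protein insertase, at 49.7.

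Large gene families had kept shares of 21.5% to 28.1%. Chromosome 19 zinc finger genes kept 52 of 185 ab12209 promoters, led by ZNF473 (corrected 69.2, ab12209 38.5), and replication-dependent histone genes 13 of 48, led by H4C12 (43.2 and 32.0). Among histone genes H2AC20 was dropped at an ab12209 value of 37.2. Cytosolic ribosomal protein genes kept 17 of 79, led by RPL30 (60.1 and 45.1), and dropped RPL41 at 66.4. Genes of these families can have similar or near-identical copies, so single values are uncertain.

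HOX genes encode transcription factors of body patterning. Of 39 HOX genes, HOXB2 was kept (corrected 60.2, ab12209 43.7) and 6 were dropped, with HOXC9 the highest at 48.0 in ab12209. A corrected peak with no ab12209 peak was found at HOXB8 (13.1), HOXD9 (13.2), HOXD10 (10.1) and HOXD11 (9.03), where 0 or 1 of the 6 other H3K4me3 lists held one. These were 4 of the 32 HOX promoters without an ab12209 peak (12.5%), against 4.46% of the 9648 such promoters of all genes. Of 415 olfactory receptor genes, whose products sense odorants, 14 held a corrected peak and no ab12209 peak. That was 3.39% of the 413 olfactory receptor promoters without an ab12209 peak, against 4.46% of the 9648 such promoters of all genes. Their corrected values ran from 7.27 to 11.4, the highest at OR6Y1, and the ab12209 peak of OR1F1 (21.8) was dropped. Myeloid genes kept 0 of 2, with CD33 dropped at 15.9. Of their 16 promoters without an ab12209 peak, 1 (6.25%) held a corrected peak, S100A8 with 9.15. Lymphoid genes kept 0 of 2, with TCF7 dropped at 11.6, and liver genes held neither ab12209 nor corrected peaks at 18 promoters. Neural genes kept 1 of 3, the tubulin gene TUBB3 (corrected 56.4, ab12209 26.4), and dropped SLC17A7 at 19.9.

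The antibodies that had no part in the correction gave the tests. Each of the 6 other H3K4me3 lists was asked what share of the ab8580 bases that the correction kept, and of those it dropped, lay under its peaks. The share of kept and of dropped ab8580 bases was 29.7% and 3.88% for Abclonal A2357, 29.9% and 4.58% for EMD Millipore 05-745R, and 34.3% and 17.4% for EMD Millipore 07-473. It was 28.0% and 2.18% for Thermo Fisher PA5-40086, 27.2% and 2.39% for Diagenode C15410003, and 25.3% and 1.77% for EpiGentek A-4033-050. Kept bases were covered more by all 6. The means were 29.1% ± 3.07 of kept and 5.36% ± 5.98 of dropped bases (SD, n = 6 antibodies), a difference of 23.7 ± 3.44 points (exact two-sided sign-flip permutation test, p = 0.0312, the smallest 6 antibodies allow, adjusted p = 0.0391 over 5 tests).

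Most of that difference lay in the bases the correction shared with ab12209. On ab8580 bases outside ab12209, the 6 lists covered 3.72% ± 3.00 of the kept and 3.74% ± 5.94 of the dropped bases (SD, n = 6), a mean difference of -0.0160 ± 3.02 points (exact permutation p = 1). There, Abclonal A2357 covered 3.33% of the kept and 1.97% of the dropped bases, and EMD Millipore 07-473 covered 9.59% of the kept and 15.7% of the dropped ones. Kept bases were covered more by 5 of the 6, and EMD Millipore 07-473 was the exception. These kept bases include edges of corrected peaks that overlap ab12209, which had 90.4% of their bases inside it. Of the corrected peaks in ab8580 only, those 5 lists overlapped 0.0522% to 0.292% and EMD Millipore 07-473 8.28%. How much of the excess lay in the edges was not tested. Without EMD Millipore 07-473 the mean difference was 1.21 points (exact permutation p = 0.0625, the smallest 5 antibodies allow). On distal bases the difference was 2.62 points (exact permutation p = 0.0938, adjusted p = 0.117).

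Bases of the corrected list outside ab12209 were then set against the ab12209 bases that the correction dropped. The corrected bases outside ab12209 were covered to 3.51% ± 2.86 and the dropped ab12209 bases to 85.0% ± 20.5 by the 6 other H3K4me3 lists (SD, n = 6). The difference was -81.5 ± 19.7 points, with the corrected bases lower in 6 of 6 lists (exact sign-flip permutation test, p = 0.0312, adjusted p = 0.0391). It ran from -96.5 points for Abclonal A2357 to -50.5 points for EpiGentek A-4033-050. The dropped bases lay under ab12209 peaks by definition and the corrected bases outside them. The test therefore cannot separate the correction from agreement of ab12209 with other H3K4me3 antibodies, and no conclusion on the correction is drawn from it.

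Counted as peaks, 91.7% of the 42185 corrected peaks in ab8580 only overlapped no other H3K4me3 list, and 38 (0.0901%) overlapped at least 4 of the 6. Those 38 had a median value of 23.7, and the peaks in no other list 9.30. For single lists the share with a peak was 0.0522% (Thermo Fisher PA5-40086) to 8.28% (EMD Millipore 07-473) in the ab8580-only class and 85.9% (EpiGentek A-4033-050) or more in the class of both sources. Among the 3221 peaks in neither source 96.4% overlapped no other H3K4me3 list. Over the genome the 6 lists covered 0.616% (EpiGentek A-4033-050) to 5.46% (EMD Millipore 07-473) of bases. They leave most of the genome uncovered, so a large share in no other list is not particular to these peaks.

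**Figure D5:**
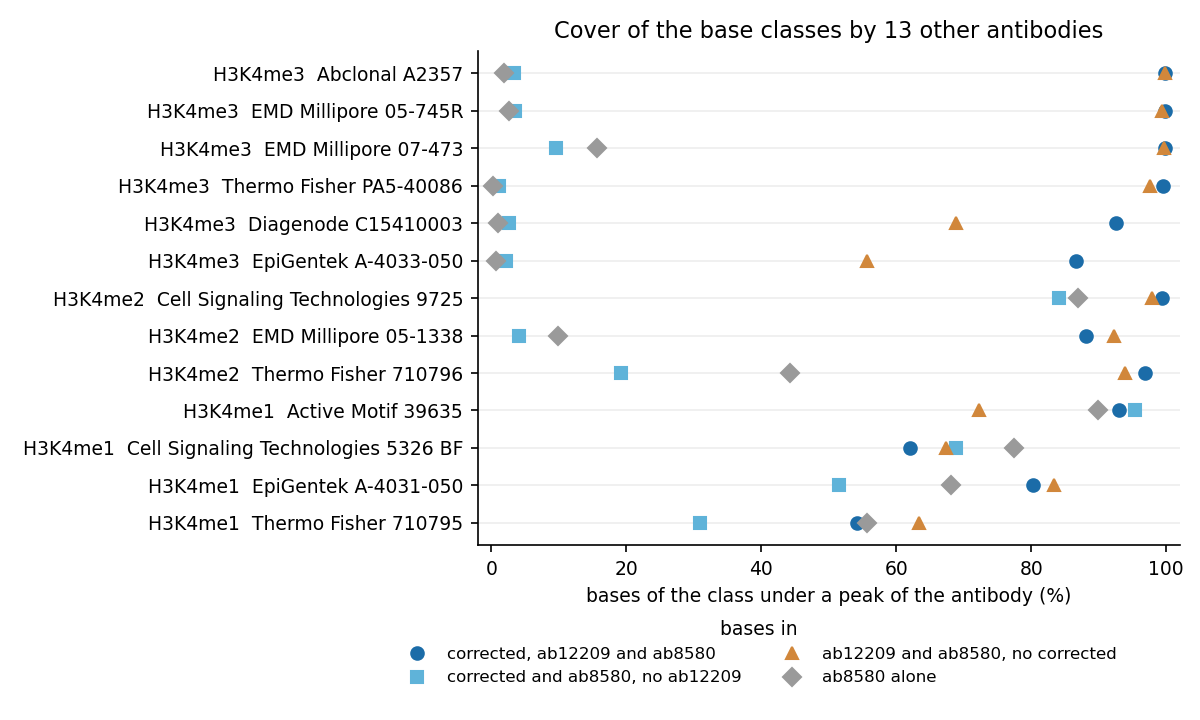
Share of the bases of 4 classes (%) under the peaks of each of 13 antibodies outside the correction, with H3K4me3 antibodies at the top, then H3K4me2 and H3K4me1. For the H3K4me3 antibodies the bases in the corrected list and ab8580 but not ab12209 lie at 1.11% to 9.59% and those in ab8580 alone at 0.280% to 15.7%, while dropped bases of both sources lie at 55.7% to 99.9%.

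The same measure was compared between targets. The ab8580 bases that were kept exceeded the dropped ones in coverage by 23.7 ± 3.44 points for H3K4me3 antibodies (n = 6), by 4.04 ± 10.4 points for H3K4me2 antibodies (n = 3) and by -8.19 ± 9.85 points for H3K4me1 antibodies (SD, n = 4). H3K4me3 differed from H3K4me2 by 19.7 points (adjusted p = 0.0391 in the exact permutation test, p = 0.0238 unadjusted) and from H3K4me1 by 31.9 points (adjusted p = 0.0391, p = 0.00952 unadjusted, same exact test). The H3K4me2 and H3K4me1 antibodies differed by 12.2 points, which did not pass (adjusted p = 0.171 in the exact permutation test), and the smallest p that 3 against 4 allow is 0.0571. Without any 1 of the 6 H3K4me3 antibodies every one of these calls ended, at adjusted p = 0.0781 or more in the exact tests after adjustment over the 5 tests. Sign-flip tests over 5 antibodies cannot go below 0.0625. Without any 1 H3K4me2 antibody only H3K4me3 against H3K4me1 passed, and the adjusted p for both comparisons within H3K4me3 was 0.0521 in the exact tests. Of the kept ab8580 bases 27.4% lay in ab12209, itself an H3K4me3 list, and of the dropped ones 1.95%. Comparisons between targets therefore cannot separate the correction from agreement of ab12209 with other H3K4me3 antibodies. On ab8580 bases outside ab12209 no difference between targets passed the threshold.

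The corrected peaks were also set against lists of lower methylation. Of those in ab8580 only, 79.5% overlapped a corrected H3K4me1 peak and 12.1% a corrected H3K4me2 peak. Of those in both sources 98.2% and 97.6% did, and of those in neither source 36.3% and 2.17%. Single H3K4me1 lists outside the correction held 36.9% (Thermo Fisher 710795) to 94.6% (Active Motif 39635) of the peaks in ab8580 only. The H3K4me2 lists held 0.728% (EMD Millipore 05-1338) to 88.4% (Cell Signaling Technologies 9725) of them. By bases, the class in the corrected list and ab8580 was covered to 79.4% by corrected H3K4me1 peaks, against 33.4% of the genome, and to 8.91% by corrected H3K4me2 peaks, against 10.6% of the genome. The lists at each end covered 30.9% (Thermo Fisher 710795, 23.9% of the genome), 95.4% (Active Motif 39635, 52.6% of the genome), 4.10% (EMD Millipore 05-1338, 3.65% of the genome) and 84.2% (Cell Signaling Technologies 9725, 49.5% of the genome) of that class. With each chromosome weighted by its bases in the class, genome cover was 41.4% for corrected H3K4me1 and 14.2% for corrected H3K4me2. For the same 4 antibodies in the same order, it was 27.2%, 64.6%, 3.96% and 57.7%. Bases in the corrected list alone were covered to 38.8% by corrected H3K4me1 peaks and to 0.617% by corrected H3K4me2 peaks. The H3K27me3 list, which covered 66.9% of the genome, overlapped 96.1% of the peaks in ab8580 only and 92.2% of those in both sources. By bases it covered 96.4% of the class in the corrected list and ab8580, against 73.6% of the genome with chromosomes weighted as above. For the class in the corrected list and both sources these shares were 91.6% and 73.5%. The corrected lists share libraries, so these overlaps are descriptions.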

How the data were processed

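Peak lists from internally calibrated ChIP-seq in K562 cells were analysed as deposited, 22 lists from a series of 25 samples. The build was GRCh38 (hg38) and the tools MACS2, Bowtie2, bedtools and SAMtools, per the submitters' processing notes, with versions and calling settings not given in the sources used here. The authors deposited column 4 as a signal value per peak, unnamed in the files, for the corrected and ab12209 lists. For ab8580 positions alone were used. Per the deposited notes, the authors used 4 Abcam libraries for the corrected list (ab12209, ab8580, ab7766 and ab8895). Read depth is unknown for these lists, so no counting interval was computed, and a missing peak does not show a missing mark. The 13 antibodies outside the correction were grouped by labelled target, 6 for H3K4me3, 3 for H3K4me2 and 4 for H3K4me1. No label names a separate culture, and p-values cover only the spread from antibody to antibody.

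Overlapping peaks were merged, and overlap required at least 1 base. Promoters used GENCODE release 44. Coverage was compared by exact two-sided sign-flip tests over antibodies and exact permutation tests between targets (SciPy 1.17.1), with Benjamini-Hochberg adjustment over 5 tests and a threshold of 0.05. Scripts were tested on simulated intervals. Named genes were the 3 highest values of each promoter class and, in each gene list, the highest corrected and the highest dropped ab12209 value. The other genes named from the lists were chosen after their values were seen. Alternatives varied chromosomes, value and width filters, overlap, promoter definition and antibodies. Members and gene lists were chosen with earlier results of these data known. RefSeq promoter sequences were found for the 2 genes printed.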

Additional observations from a re-analysis of the deposited data

Results flagged for a closer look

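EMD Millipore 07-473 stood apart from the other H3K4me3 antibodies in 3 of 12 groups of antibody values checked, where chance sets about 1 group in 20 apart. Its excess of kept over dropped ab8580 bases was 16.9 points, with the other 5 antibodies between 23.5 and 25.9. It covered 9.59% of the bases in the corrected list and ab8580 outside ab12209, against 1.11% to 3.51% for the others. Of ab8580 bases alone it covered 15.7%, against 0.280% to 2.69%. Over the genome it covered 5.46% of bases, against 0.616% to 1.42% for the other 5.

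The excess of kept over dropped ab8580 bases also differed between targets, by 19.7 points for H3K4me3 against H3K4me2 and by 31.9 points for H3K4me3 against H3K4me1, both past the adjusted threshold in the exact tests. Neither difference passed on ab8580 bases outside ab12209, and neither passed when any single H3K4me3 antibody was left out.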

How the results depend on the processing

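No paired analysis was possible because the labels give the antibodies no shared replicate number to use as a block across groups; the sign-flip tests pair kept and dropped bases within each antibody. Tests used few antibodies, and read depth is unknown.

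More ab12209 promoters were dropped than kept under each setting run. Leaving out each of the 13 antibodies in turn gave 23.3 to 25.1 points for kept minus dropped ab8580 bases and -87.7 to -78.5 points for corrected bases outside ab12209 minus dropped ab12209 bases. Between targets it gave 15.3 to 25.5 points (H3K4me3 against H3K4me2), 28.4 to 36.4 (H3K4me3 against H3K4me1) and 6.45 to 16.7 (H3K4me2 against H3K4me1). The 4 calls ended, with their direction unchanged, with AR16 antibodies only (23.5, -93.8, 19.4 and 31.7 points) and with libraries of 8 amplification cycles only (22.6, -74.1, 24.4 and 30.8), where sign-flip tests over 4 H3K4me3 antibodies cannot go below an exact p of 0.125. They ended on distal bases too (2.62, -84.6, 11.9 and 13.1). On ab8580 bases outside ab12209, a setting chosen after seeing the data, kept minus dropped bases reversed to -0.0160 points and H3K4me2 against H3K4me1 to -0.00897, while H3K4me3 exceeded H3K4me2 by 11.1 points and H3K4me1 by 11.1, neither past the threshold. With EMD Millipore 07-473 left out as well, the 4 values were 1.21, -0.00897, 12.4 and 12.4, none past it.

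With corrected peaks at or above the median value, corrected bases in ab8580 only were 6.64 Mb and in neither source 0.504 Mb. The peaks were 19408 in ab8580 only and 1770 in neither, 21697 ab8580 peaks were kept, and 220 promoters had a corrected and no ab12209 peak. With values of 20 or more, chosen after seeing the data, the same values were 0.598 Mb, 0.00285 Mb, 169, 11, 3108 and 14. With ab12209 peaks at or above their median, dropped ab12209 bases were 9.59 Mb, dropped promoters 4611 and promoters with a corrected and no ab12209 peak 777. Erythroid genes then kept 1 and dropped 10, immediate early genes dropped 7, HOX genes 2, and lymphoid, myeloid and neural genes 0. These settings remove peaks by construction. With overlap of at least 0.5, 13806 ab8580 peaks were kept and 77 promoters had a corrected and no ab12209 peak, which were 933 with a window of 2.5 kb and 205 with 0.5 kb.

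Promoter shares of kept ab12209, dropped ab12209 and corrected bases outside ab12209 were 90.5%, 75.2% and 6.05% with a window of 2.5 kb, 45.9%, 34.996% and 0.849% with 0.5 kb, and 66.9%, 50.6% and 2.25% with gene 5′ ends as TSS. They were 77.9%, 68.3% and 4.56% with ab12209 peaks at or above the median. With corrected peaks at or above the median, kept ab12209 bases were 75.9% promoter and corrected bases outside ab12209 3.82%. Without chromosomes 13, 14 and X kept and dropped ab12209 bases were 75.9% and 57.9% promoter. Merging nearby peaks, a minimum width of 1 nucleosome and leaving out peaks over 1 Mb changed no value by over 1.5 times.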
